A study of Mus musculus with 12 samples.

Results

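The metallothioneins and zinc transporters described here are 7 genes, namely the metallothioneins Mt1 and Mt2, the metal-sensing transcription factor Mtf1, the zinc exporter Slc30a1, its relative Slc30a10, and the importers Slc39a4 and Slc39a14. They were found by gene symbol among the 22471 features of each deposited table, and all 7 were present and passed the filter on low counts. The genes were chosen by their expression in these same groups, so their levels and differences are given as a description and without a test. Tests are given only for genes outside the 7, namely other genes of metal handling, genes of 2 responses known to reach metallothionein genes, and cell type markers.

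Primary mouse hepatocytes, taken in the study from 6-week-old male C57BL/6J mice, were cultured for 16 h under 4 conditions and profiled by RNA sequencing. The Con group received neither compound, the BBR group received 15 µM benzbromarone (BBR, a uricosuric drug used in gout), the ConOA group received 0.2 mM oleic acid (OA, a monounsaturated fatty acid that loads hepatocytes with lipid), and the BBROA group received both at those doses. Each group had 3 libraries, called biological replicates by the submitters without a statement that they came from separate mice, so the p-values measure the spread between these libraries. The oleic acid was carried on bovine serum albumin, and no source says that the other groups received albumin, so the fatty acid and its carrier cannot be told apart.

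Metallothioneins are small cysteine-rich proteins that bind zinc and copper in the cytosol and buffer their free levels. When free zinc rises, MTF1 binds metal response elements and switches on the metallothionein genes and the plasma membrane exporter gene Slc30a1, while ZIP importers of the Slc39 family bring zinc into the cytosol. In liver, metallothionein genes are also known to respond to glucocorticoids and to interleukin-6, and the importer Slc39a14 (ZIP14) is known as an interleukin-6-responsive carrier of zinc, manganese and non-transferrin-bound iron.

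Mt2 (chr8:94172664-94173568) and Mt1 (chr8:94179082-94180327) lie beside each other on the plus strand of GRCm38. Slc30a1 (chr1:191906767-191913247) is also on the plus strand. Of the members, Mt1, Mt2, Slc30a1 and Slc39a14 had higher levels in every library with oleic acid. Slc39a14 had no entry in the RefSeq promoter set. The start regions of the other 3 are shown, because the metal response element is the sequence through which MTF1 is known to act. Each is 280 bases from the RefSeq promoter set on GRCm38.p6, namely chr8:94178839-94179118 for Mt1, chr8:94172368-94172647 for Mt2 and chr1:191906531-191906810 for Slc30a1, with 250 bases before the annotated RefSeq start and 30 after it. Capitals mark matches to the core of the metal response element, spelled TGCACNC or TGCGCNC and read on both strands, so that a match on the opposite strand appears as its reverse complement.
Mt1: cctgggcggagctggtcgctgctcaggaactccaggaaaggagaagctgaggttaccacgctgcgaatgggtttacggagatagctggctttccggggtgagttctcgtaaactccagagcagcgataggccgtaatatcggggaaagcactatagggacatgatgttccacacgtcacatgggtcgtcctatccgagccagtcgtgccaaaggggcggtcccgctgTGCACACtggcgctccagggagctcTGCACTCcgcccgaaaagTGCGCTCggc
Mt2: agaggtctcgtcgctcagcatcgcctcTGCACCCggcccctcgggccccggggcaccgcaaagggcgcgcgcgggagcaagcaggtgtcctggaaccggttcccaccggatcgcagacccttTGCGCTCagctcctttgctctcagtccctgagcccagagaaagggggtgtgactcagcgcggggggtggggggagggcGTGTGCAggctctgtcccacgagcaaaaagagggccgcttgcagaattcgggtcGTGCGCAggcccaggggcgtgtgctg
Slc30a1: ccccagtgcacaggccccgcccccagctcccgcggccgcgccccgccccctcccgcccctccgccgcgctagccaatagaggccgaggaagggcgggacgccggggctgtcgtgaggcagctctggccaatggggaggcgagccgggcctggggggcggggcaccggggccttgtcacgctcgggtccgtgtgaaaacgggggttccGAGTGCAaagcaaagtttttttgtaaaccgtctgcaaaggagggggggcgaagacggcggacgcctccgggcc

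In windows of 300 bases, from 250 before to 50 after the annotated start, Mt2 held 4 matches, Mt1 held 3 and Slc30a1 held 2. Of 32851 windows in the same set, 25.7% held at least 1 match, 7.11% at least 2, 1.97% at least 3 and 0.517% at least 4. The Mt1 matches all ran in the direction of the gene, at positions -23 to -17, 3 to 9 and 21 to 27 around the annotated RefSeq start. Those of Mt2 were spread from -223 to 11, with 2 on each strand, and the second match of Slc30a1 lay at 31 to 37, just past the printed stretch. Slc30a10 held 3 matches, 2 of which overlapped on opposite strands, and the Mtf1 window held 0. Positions are counted from the RefSeq start, and where transcription began in these cells was not measured. For Mt2 the GENCODE start, at 94172664, lies past the end of the printed stretch, at 94172647. A match describes these letters and is not evidence of binding.

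**Figure D1:**
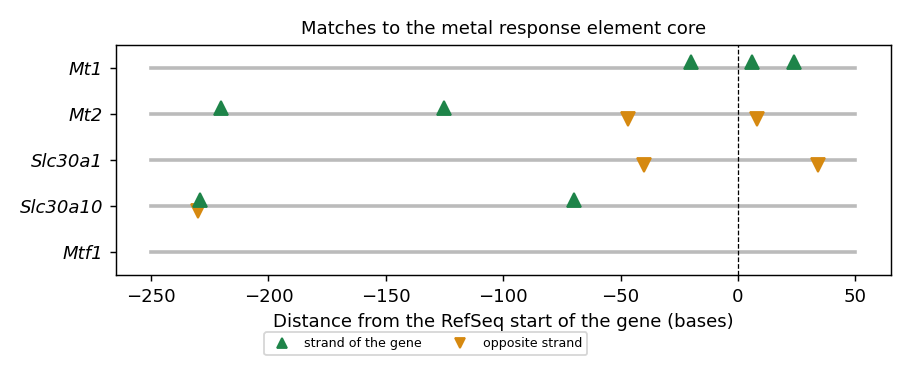
Positions of matches to the metal response element core in the 300-base windows of 5 members with a RefSeq promoter entry, as distance in bases from the annotated start (dashed line). Upward triangles are matches on the strand of the gene and downward triangles those on the opposite strand. Mt2 carries 4 matches, Mt1 carries 3 that lie between -23 and 27 around the annotated RefSeq start, and Mtf1 carries 0.

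Both metallothionein genes were lowest in Con, intermediate with benzbromarone alone, and highest with oleic acid, whether or not the drug was added. Levels are given in CPM, the counts of a gene relative to the size of its library, scaled between libraries by trimmed mean of M values (TMM). Mt1 (ENSMUSG00000031765) stood at 202, 249 and 238 CPM in the 3 Con libraries, at 352, 441 and 419 CPM in BBR, at 719, 786.5 and 806 CPM in ConOA, and at 702, 771 and 741 CPM in BBROA. Every BBR library was above every Con library and below every library with oleic acid, while ConOA and BBROA overlapped. The group means were 229.6 ± 24.9 CPM in Con, 404 ± 46.5 CPM in BBR, 770.4 ± 45.3 CPM in ConOA and 738 ± 34.6 CPM in BBROA (SD, n = 3).

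Mt2 (ENSMUSG00000031762) was at 126, 156 and 158 CPM in Con, at 214, 248 and 244 CPM in BBR, at 562, 565 and 582 CPM in ConOA, and at 500.02, 499 and 506 CPM in BBROA. All 4 groups were apart, and here the libraries with both compounds lay below those with oleic acid alone. On the log2 scale the BBR minus Con difference was 0.82 (SE 0.079) for Mt1 and 0.69 (SE 0.074) for Mt2, or 1.77-fold and 1.61-fold. In the presence of oleic acid the same difference was -0.06 (SE 0.053) for Mt1 and -0.19 (SE 0.043) for Mt2. With the fatty acid present, then, the drug groups overlapped for Mt1 and the order was turned for Mt2.

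The oleic acid difference was larger than the drug difference. ConOA exceeded Con by 1.75 on the log2 scale (SE 0.073) for Mt1 and by 1.97 (SE 0.073) for Mt2, which is 3.37-fold and 3.91-fold. Between BBROA and BBR the differences were 0.87 (SE 0.068) for Mt1 and 1.09 (SE 0.052) for Mt2, or 1.83-fold and 2.13-fold. The interaction term, the drug difference with oleic acid minus the drug difference without it, came to -0.88 (SE 0.11) for Mt1 and -0.86 (SE 0.096) for Mt2. Each of these 4 comparisons shares libraries with others of them, so their values are set side by side only.

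The 2 genes did not move by the same proportion. In deposited FPKM, a fragment count relative to transcript length and library size that allows levels of different genes to be compared per length, the ratio of Mt2 to Mt1 was 0.674, 0.675 and 0.713 in Con and 0.654, 0.604 and 0.627 in BBR. It was 0.841, 0.774 and 0.778 in ConOA and 0.767, 0.696 and 0.736 in BBROA. Every ConOA library thus had relatively more Mt2 than every Con library, and every BBR library relatively less, with group means of 0.798 ± 0.038, 0.687 ± 0.022 and 0.628 ± 0.025 (SD, n = 3). Counts of the 2 genes together made up 0.038% of all counts in Con, 0.064% in BBR, 0.133% in ConOA and 0.123% in BBROA. The genes are related copies, and how any reads shared between them were assigned is not stated.

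**Figure D2:**
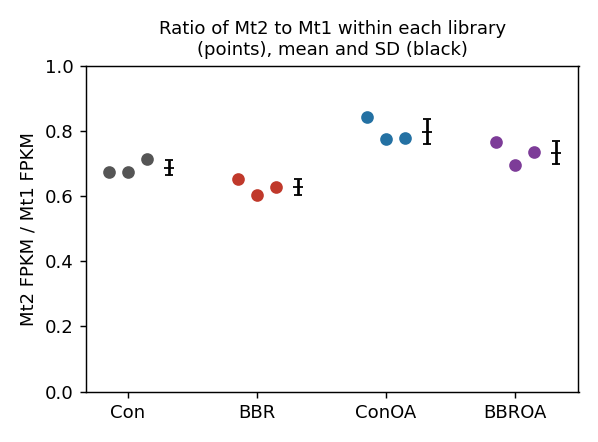
Ratio of Mt2 FPKM to Mt1 FPKM within each of the 12 libraries (points), with the mean and SD of each group of 3 in black. The vertical axis starts at 0. The BBR libraries lie lowest, from 0.604 to 0.654, and the ConOA libraries highest, from 0.774 to 0.841.

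The gene for the zinc sensor itself, Mtf1 (ENSMUSG00000028890, chr4:124802104-124849800), differed little between groups. It was at 30.1, 28.5 and 26.5 CPM in Con, at 30.2, 25.2 and 30.5 CPM in BBR, at 35.5, 29.1 and 27.8 CPM in ConOA, and at 32.4, 31.2 and 31.9 CPM in BBROA. Its groups overlapped in 3 of the comparisons, and in the fourth every BBROA library was above every BBR library, by 0.14 on the log2 scale (SE 0.072). The other differences were 0.03 (SE 0.078) for BBR against Con, 0.05 (SE 0.083) for BBROA against ConOA and 0.13 (SE 0.087) for ConOA against Con. Its deposited FPKM spread more widely than its counts, from 3.58 to 9.67.

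Slc30a1 (ENSMUSG00000037434), which encodes the plasma membrane exporter ZnT1, was higher with oleic acid and did not separate by drug. It stood at 45.3, 46.8 and 47.7 CPM in Con and at 42.8, 49.7 and 46.2 CPM in BBR. With oleic acid it was at 64.1, 63.4 and 66.2 CPM in ConOA and at 64.9, 65.2 and 69.8 CPM in BBROA. All 6 libraries with oleic acid were above all 6 without it, and within each of these sets the drug groups overlapped. The oleic acid difference was 0.48 (SE 0.052) on the log2 scale without the drug and 0.53 (SE 0.059) with it, or 1.39-fold and 1.44-fold. The drug difference was -0.01 (SE 0.060) without oleic acid and 0.04 (SE 0.052) with it. Thus benzbromarone alone went with higher Mt1 and Mt2 at an Slc30a1 level that overlapped Con.

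Slc30a10 (ENSMUSG00000026614, chr1:185454848-185468762) is known chiefly as a manganese exporter despite its place in the zinc exporter family, and it was barely expressed. Its counts were 42, 49 and 60 reads in Con, 51, 32 and 37 in BBR, 27, 29 and 35 in ConOA, and 20, 40 and 25 in BBROA. In CPM the ConOA range of 1.53 to 1.79 was below the Con range of 2.11 to 2.53, whereas BBROA ran from 1.01 to 2.11 and overlapped the other groups. The log2 difference of ConOA from Con was -0.51 (SE 0.21) and that of BBROA from BBR was -0.48 (SE 0.27). At this depth a drug difference was not detectable, with -0.11 (SE 0.20) without oleic acid and -0.09 (SE 0.28) with it.

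The 2 importers took different courses. Slc39a14 (ENSMUSG00000022094, chr14:70303469-70351425, minus strand) was lower with the drug and higher with oleic acid. It was at 149, 135 and 136 CPM in Con, at 97.7, 86.4 and 93.4 CPM in BBR, at 219, 204 and 194 CPM in ConOA, and at 183, 166 and 162 CPM in BBROA. No 2 groups overlapped, in the order ConOA, BBROA, Con and BBR from high to low. The drug difference was -0.59 (SE 0.055) on the log2 scale without oleic acid and -0.27 (SE 0.058) with it, and the oleic acid difference was 0.56 (SE 0.057) without the drug and 0.88 (SE 0.056) with it. The interaction term of 0.32 (SE 0.085) had the opposite sign to those of Mt1 and Mt2.

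Slc39a4 (ENSMUSG00000063354, chr15:76612383-76617384, minus strand) encodes ZIP4, best known as the intestinal zinc importer whose loss causes acrodermatitis enteropathica. It was highest in Con, at 150.4, 158 and 146 CPM, and lower with either compound, at 117, 122 and 121 CPM in BBR and at 119, 129 and 130.4 CPM in ConOA. With both compounds it was lowest, at 104, 111 and 111 CPM. BBR and ConOA overlapped each other, and all other pairs of groups were apart. The drug difference was -0.33 (SE 0.046) on the log2 scale without oleic acid and -0.22 (SE 0.051) with it, and the oleic acid difference was -0.26 (SE 0.053) without the drug and -0.14 (SE 0.044) with it.

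The importers also exchanged rank per length. In Con, Slc39a4 had 68.8 ± 2.95 FPKM and Slc39a14 had 52.2 ± 3.67 FPKM (SD, n = 3). In BBR the order was the same, with 54.2 ± 1.17 against 34.3 ± 1.90 FPKM. In ConOA, Slc39a14 led with 87.9 ± 7.62 FPKM against 56.2 ± 2.66 FPKM for Slc39a4, and in BBROA it led with 66.9 ± 4.64 against 48.4 ± 1.41 FPKM. Over all 12 libraries the mean FPKM of the members ran from 969 for Mt1 and 708 for Mt2, through 60.3 for Slc39a14, 56.9 for Slc39a4, 10.7 for Slc30a1 and 5.66 for Mtf1, to 0.327 for Slc30a10. The ranges of Slc39a14 and Slc39a4 overlapped, as did those of Slc30a1 and Mtf1 (lowest Slc30a1 value 8.23, highest Mtf1 value 9.67) and those of Mt1 and Mt2.

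**Figure D3:**
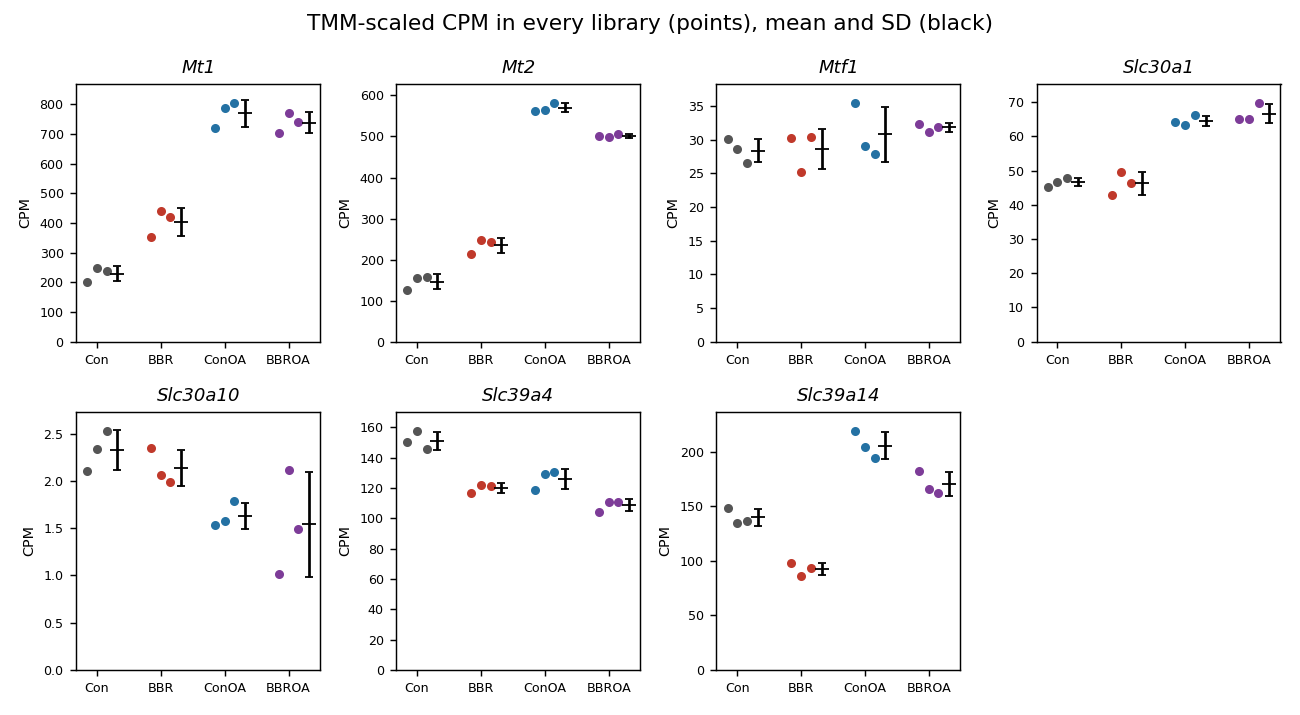
Scaled CPM of the 7 members in each library (coloured points), with the mean and SD of each group of 3 in black. Every vertical axis starts at 0 and has its own scale. Mt1 and Mt2 step up from Con through BBR to the groups with oleic acid, Slc30a1 splits by oleic acid, Slc39a14 is low with BBR and high with oleic acid, and Slc39a4 is highest in Con.

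Counted over the members, BBR and Con did not overlap for 4 genes, 2 higher and 2 lower in BBR, at a background of 41.5% of all genes tested. BBROA and ConOA did not overlap for 3 members, all lower in BBROA, at a background of 23.8%. ConOA and Con did not overlap for 6 members, 4 higher and 2 lower in ConOA, at a background of 52.2%. BBROA and BBR did not overlap for 6 members, 5 higher and 1 lower in BBROA, at a background of 49.6%. As the members were selected on these contrasts, nothing is read from those counts.

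The rest of the zinc transporter families was tested. These genes are what was left of the families once the members had been chosen, so they are not an independent set. The families held 20 further genes, of which 15 had enough counts. The call was an adjusted p under 0.05 in edgeR's quasi-likelihood test, with the Benjamini-Hochberg adjustment over all genes tested. With BBR alone 2 rose and 1 fell, where 13.2% of all genes rose and 14.5% fell. With BBR added to oleic acid 0 of 15 were called, by edgeR or by DESeq2, with 4 at an unadjusted p under 0.05 in edgeR, and the background was 1.95% of genes higher and 2.63% lower. When the replicate number was added to the edgeR fit as a block, 2 of the 15 were called, both higher. The share of all genes called in that fit is not given. With oleic acid alone 4 rose and 4 fell at a background of 21.3% and 21.5%, and with oleic acid added to BBR 2 rose and 2 fell at a background of 20.1% and 18.8%. The ConOA count dropped from 8 to 5 in DESeq2 and on leaving out Con replicate 2, ConOA replicate 2 or ConOA replicate 3.

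Slc39a10, which encodes the plasma membrane importer ZIP10, fell furthest with oleic acid alone. It was at 29.7, 29.1 and 28.6 CPM in Con and at 28.5, 27.5 and 24.3 CPM in BBR. In ConOA it was at 12.6, 13.2 and 9.86 CPM, and in BBROA at 13.7, 11.3 and 11.3 CPM. The 6 libraries with oleic acid lay below the 6 without it. The decrease was -1.29 on the log2 scale without the drug (SE 0.092, adjusted p = 9.39e-08) and -1.15 with it (SE 0.092, adjusted p = 2.96e-07), the opposite direction to the oleic acid difference of Slc39a14. RefSeq lists 2 promoter windows for Slc39a10, and both held 0 matches to the metal response element core. Neither window covers the GENCODE start of the gene, at 46892852 on the minus strand, so that region was not read.

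Apart from Slc30a3, the other called transporters moved by at most 0.36 on the log2 scale in the 4 comparisons, and these genes were named after their values were seen. With oleic acid alone Slc39a6 rose by 0.30 on the log2 scale, Slc30a7 by 0.23, Slc39a1 by 0.19 and Slc30a9 by 0.16, while Slc39a13 fell by 0.36, Slc39a11 by 0.19 and Slc39a9 by 0.15. The calls of Slc30a9, Slc39a9 and Slc39a11 were lost in DESeq2 and when single libraries were left out, including ConOA replicate 2 and ConOA replicate 3 for each. Slc39a6 and Slc39a1 rose again on the BBR background, by 0.21 each. With BBR alone Slc30a9 rose by 0.29 and Slc39a13 fell by 0.28, the latter call being lost without Con replicate 1 or BBR replicate 2. Slc30a3, a transporter of synaptic vesicles, was at 0.91 to 1.31 CPM in Con and at 2.30 to 3.44 CPM in BBR, a rise of 1.36 (SE 0.25, adjusted p = 7.48e-04), and was lower again in BBROA than in BBR, by -1.58 (SE 0.30, adjusted p = 7.58e-04).

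Slc30a2, Slc30a8, Slc39a12 and Mt4 had 0 counts in every library. Mt3 reached at most 4 counts, Slc39a2 at most 9 and Slc39a5 at most 2, so metallothionein transcripts came almost wholly from Mt1 and Mt2.

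**Figure D4:**
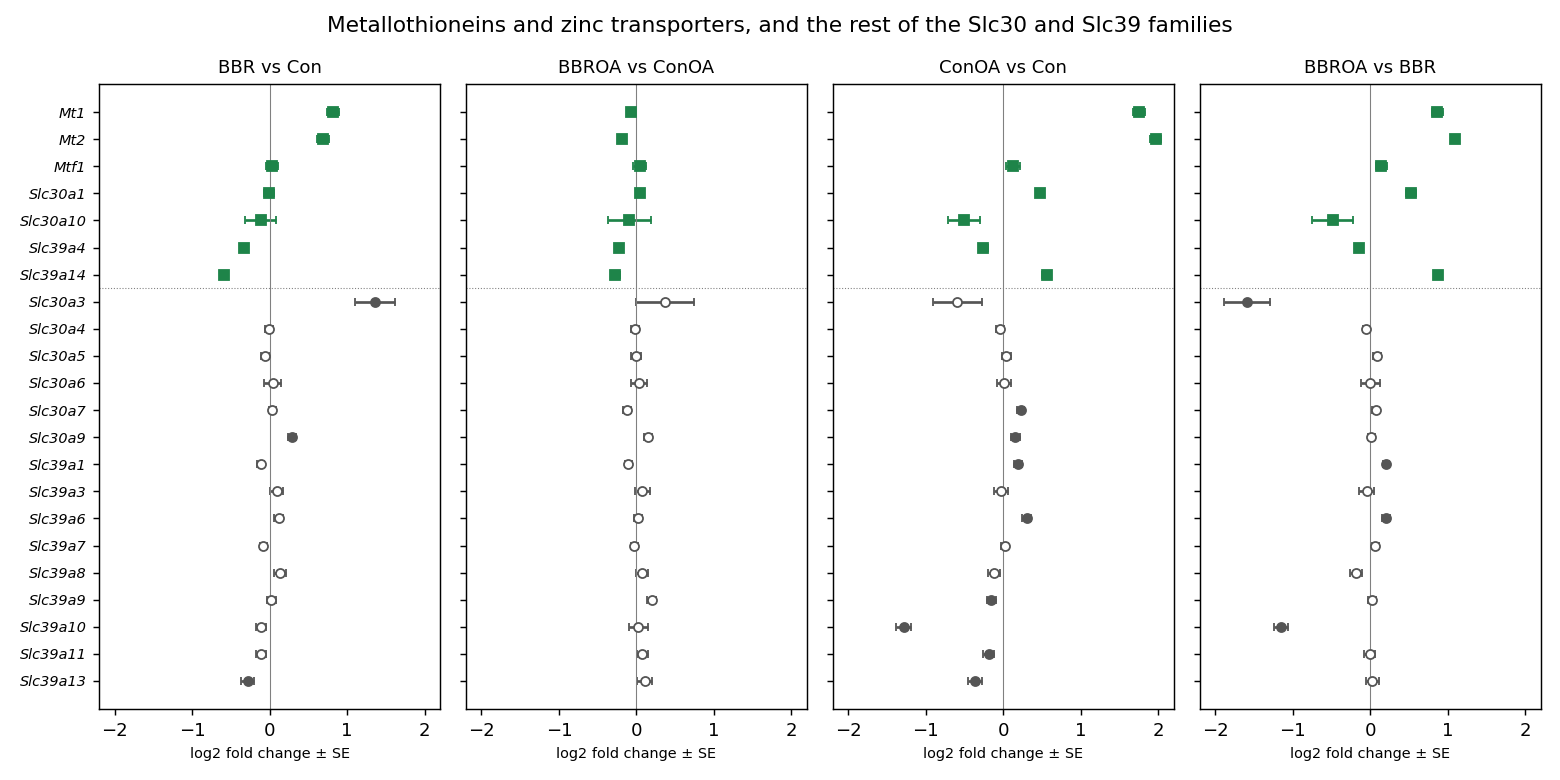
Log2 fold changes with their standard errors for the 7 members (green squares, not tested) and the 15 tested relatives of the Slc30 and Slc39 families (circles, filled where the adjusted p was under 0.05), in the 4 comparisons. The panels with oleic acid show Mt1 and Mt2 far to the right and Slc39a10 well to the left, and the panel of BBROA against ConOA has no filled circle.

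Outside these families, 7 genes known as MTF1 targets were listed. This list and those below were chosen with earlier results of these data known. All 7 were called with BBR alone, 2 higher and 5 lower, and all 7 with oleic acid alone, 3 higher and 4 lower, so the list did not move one way. Of all genes tested, 13.2% rose and 14.5% fell with BBR alone, and 21.3% rose and 21.5% fell with oleic acid alone. The DESeq2 counts of this list were 5 and 7, and without ConOA replicate 2 the oleic acid count was 4. With BBR added to oleic acid 1 rose and 2 fell, at a background of 1.95% and 2.63%. With oleic acid added to BBR 2 rose and 1 fell, at a background of 20.1% and 18.8%.

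Gclc, the catalytic subunit of glutamate-cysteine ligase that makes glutathione, went against Mt1 and Mt2 under BBR. It was at 422, 479.8 and 465 CPM in Con and at 243, 187 and 216 CPM in BBR, a fall of 1.07 on the log2 scale (SE 0.075, adjusted p = 5.14e-08). Under oleic acid it was at 345, 356 and 421 CPM without the drug and at 218, 256 and 256 CPM with it, a drug difference of -0.63 (SE 0.075, adjusted p = 2.33e-04). Ndrg1, a stress-responsive gene, rose with BBR alone from 208 to 266 CPM in Con to 434 to 508 CPM in BBR, by 1.03 (SE 0.076, adjusted p = 9.63e-08). With oleic acid it was at 310.4 to 376 CPM in ConOA and 325 to 411 CPM in BBROA, which overlapped. Its interaction term was -0.89 (SE 0.13, adjusted p = 2.11e-04).

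Pgf, the placental growth factor gene, rose with oleic acid. It was at 8.38, 6.68 and 7.12 CPM in Con and at 18.3, 16.4 and 16.8 CPM in ConOA, an increase of 1.23 (SE 0.10, adjusted p = 3.54e-07). BBROA, at 10.5, 11.0 and 10.1 CPM, was above BBR by 0.89 (SE 0.11, adjusted p = 1.71e-05) and below ConOA by -0.71 (SE 0.088, adjusted p = 3.28e-04). Hamp, the gene of the iron hormone hepcidin, was highest with both compounds, at 308, 272 and 303 CPM against 153, 122 and 150.4 CPM in ConOA. That drug difference was 1.05 (SE 0.076, adjusted p = 2.02e-06), whereas without oleic acid BBR libraries, at 105 to 150.01 CPM, were below Con, at 167 to 171 CPM, by -0.36 (SE 0.084, adjusted p = 0.0042), a call that DESeq2 did not make. ConOA was below Con as well, by -0.24 (SE 0.071, adjusted p = 0.013), a call lost without ConOA replicate 2. Cebpa, a hepatocyte transcription factor, fell by 0.50 with BBR alone (SE 0.063, adjusted p = 1.99e-05) and by 0.44 with oleic acid alone (SE 0.061, adjusted p = 4.80e-05).

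**Figure D5:**
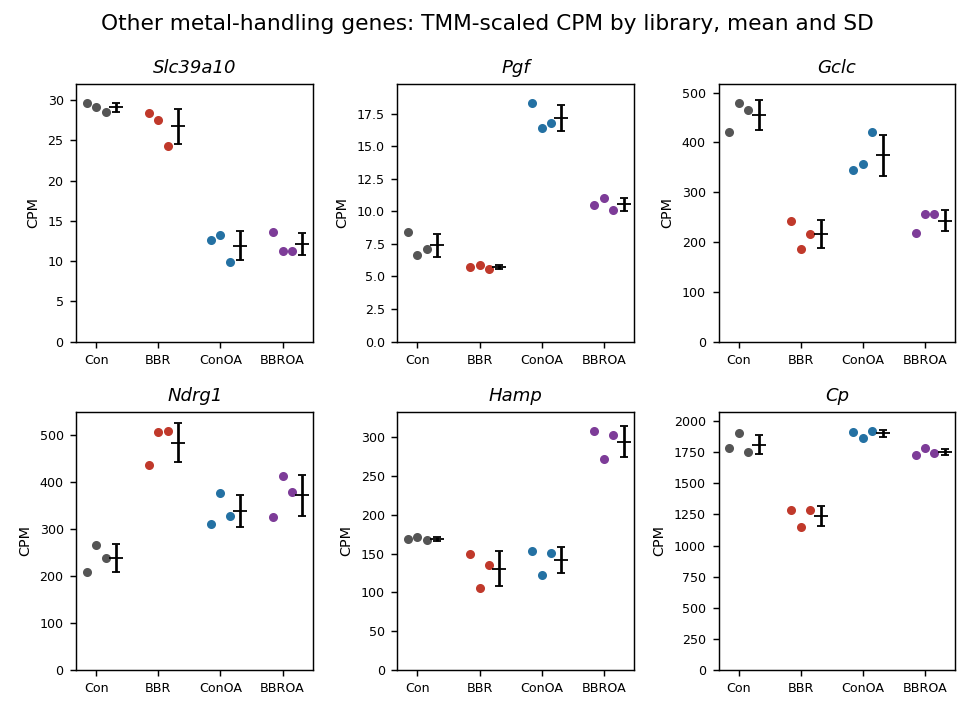
Scaled CPM of 6 other metal-handling genes in each library (points), with the mean and SD of each group of 3 in black and axes from 0. Slc39a10 drops with oleic acid, Pgf is highest in ConOA, Gclc is lower with BBR in both settings, Ndrg1 peaks in BBR, Hamp peaks in BBROA, and Cp is lowest in BBR.

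Across all 47 genes of metal handling other than the members, 40 were tested. With BBR alone 7 rose and 10 fell, where 13.2% of all genes rose and 14.5% fell. With BBR on top of oleic acid 1 rose and 2 fell, at a background of 1.95% and 2.63%. With oleic acid alone 13 rose and 11 fell, at a background of 21.3% and 21.5%. With oleic acid on top of BBR 10 rose and 8 fell, at a background of 20.1% and 18.8%. The list medians of the log2 difference lay between -0.0059 and 0.029, against -0.0061 to -0.00031 for all genes tested. Upper quartile scaling shifted the balance of the oleic acid calls, to 10 higher and 12 lower without the drug and to 9 and 9 with it. The same scaling moved the calls over all genes from 2643 higher and 2669 lower to 2077 and 3216 for ConOA against Con, and from 2496 and 2330 to 1976 and 2870 for BBROA against BBR.

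Among the copper genes, ceruloplasmin (Cp), the copper-carrying ferroxidase of plasma, fell with BBR alone from 1751 to 1902 CPM in Con to 1146 to 1288 CPM, by 0.54 (SE 0.057, adjusted p = 3.26e-06), and reached 1731 to 1781 CPM in BBROA. Atox1, a cytosolic copper chaperone, rose with oleic acid by 0.52 without the drug (SE 0.064, adjusted p = 1.61e-05) and by 0.65 with it (SE 0.052, adjusted p = 2.76e-07). Of 12 copper genes, 2 rose and 3 fell with BBR alone, and 3 rose and 2 fell with oleic acid alone. Without Con replicate 1, Con replicate 2 or ConOA replicate 2 the oleic acid count was 2 higher and 1 lower. Of all genes tested, 13.2% rose and 14.5% fell with BBR alone, and 21.3% rose and 21.5% fell with oleic acid alone. Of 6 manganese and related genes, 1 rose and 1 fell with BBR alone and 3 rose and 1 fell with oleic acid alone, the fall being that of Slc40a1 (ferroportin, the iron exporter), by 0.52 (SE 0.070, adjusted p = 3.55e-05). Its fall with oleic acid on top of BBR was 0.56 (SE 0.062, adjusted p = 7.23e-06). Arg1, of the same list, rose by 0.39 with BBR alone (SE 0.10, adjusted p = 0.0081). With oleic acid alone Arg1 rose by 0.85 (SE 0.091, adjusted p = 4.67e-06).

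The drug difference itself depended on oleic acid for 8 of the 40 genes, as the interaction term was above 0 for 6 and below it for 2, where 6.87% of all genes tested were positive and 5.31% negative. DESeq2 called 5, and leaving out Con replicate 2, BBR replicate 2, ConOA replicate 2 or BBROA replicate 3 each left 5. The largest term was that of Hamp, at 1.42 (SE 0.13, adjusted p = 5.70e-06).

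Hormone and cytokine responses known to reach metallothionein genes were read from 2 further lists of 10 genes. Of the glucocorticoid-responsive genes, 8 rose and 1 fell with oleic acid alone, where 21.3% of all genes rose and 21.5% fell. With oleic acid on top of BBR 8 rose and 1 fell as well, at a background of 20.1% and 18.8%. Sgk1, a serum- and glucocorticoid-regulated kinase, rose from 13.7 to 14.8 CPM in Con to 31.9 to 39.9 CPM in ConOA, by 1.40 (SE 0.090, adjusted p = 3.27e-08). The clock gene Per1 rose by 1.15 with oleic acid alone (SE 0.084, adjusted p = 1.15e-07) and by 0.61 with BBR alone (SE 0.086, adjusted p = 5.79e-05). Tdo2, tryptophan dioxygenase, was the gene that fell, from 33.0 to 36.8 CPM in Con to 9.34 to 12.1 CPM in ConOA, by 1.70 (SE 0.089, adjusted p = 5.39e-09).

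With BBR alone 2 of these genes rose and 5 fell, where 13.2% of all genes rose and 14.5% fell. Those that fell included Zbtb16, a transcriptional repressor, by 0.54 (SE 0.088, adjusted p = 2.26e-04), and Tat, tyrosine aminotransferase, by 0.44 (SE 0.15, adjusted p = 0.040). The Tat call was lost in DESeq2 and without Con replicate 1 or 2 or BBR replicate 2 or 3, and without BBR replicate 3 the list count was 2 higher and 2 lower. With oleic acid on top of BBR, Tat rose by 1.52 (SE 0.15, adjusted p = 2.37e-06). With BBR on top of oleic acid 1 of 10 rose, at a background of 1.95%. It was Per1, by 0.28 (SE 0.074, adjusted p = 0.046). DESeq2 called 0, as did edgeR without ConOA replicate 2, ConOA replicate 3 or any 1 of the BBROA libraries, and with no filter on low counts 2 were called.

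Of the 10 interleukin-6 and STAT3 genes, 5 rose and 1 fell with oleic acid alone, at a background of 21.3% and 21.5%. With oleic acid on top of BBR 5 rose, at a background of 20.1%. With oleic acid alone Saa1 (0.03 on the log2 scale), Saa2 (0.07), Hp (0.10) and Stat3 (-0.12) were not called, and Fgb fell by 0.25. Il6st rose by 0.28, and Orm1 by 0.18, a call lost under 5 of 11 alternatives. Lcn2, an iron-siderophore-binding acute-phase protein, went from 236, 275 and 259 CPM in Con to 999, 1172 and 1228 CPM in ConOA, a rise of 2.15 (SE 0.077, adjusted p = 9.27e-11). Unlike Mt1 and Mt2 it overlapped Con in BBR, at 213, 279 and 271 CPM. The receptor gene Il6ra rose by 0.59 with oleic acid (SE 0.073, adjusted p = 1.63e-05), and Socs3, the feedback inhibitor of this pathway, by 0.39 (SE 0.12, adjusted p = 0.020), a call lost in DESeq2 and without Con replicate 1 or 3 or ConOA replicate 2. With BBR alone 0 of the 10 rose and 2 fell, where 13.2% of all genes rose and 14.5% fell. In edgeR 3 of 10 had an unadjusted p under 0.05 in either direction, and DESeq2 called 2. The 2 genes that fell were those of haptoglobin (Hp), by 0.82 (SE 0.060, adjusted p = 9.12e-08), and fibrinogen beta (Fgb), by 0.81 (SE 0.063, adjusted p = 1.48e-07). With BBR on top of oleic acid 1 rose and 2 fell, at a background of 1.95% and 2.63%. Without BBROA replicate 2 or BBROA replicate 3 the count of this list was 0. The part of these responses in the levels of Mt1 and Mt2 was not tested.

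The genes whose log2 CPM followed each member most closely over the 12 libraries were sought among 9715 genes with a mean of at least 5 CPM. The correlations are a description over libraries that share 4 treatments. Mt1 and Mt2 were each other's closest match (Pearson r = 0.991), followed for Mt1 by Necap2 (0.984) and Tmem65 (0.983) and for Mt2 by the stress-responsive pseudokinase gene Trib3 (0.987) and Pdcd10 (0.985). For Slc30a1 they were Cyp2b10, a drug-metabolizing cytochrome P450 gene (0.991), Psph, the phosphoserine phosphatase of serine synthesis (0.990), and Ahcy, S-adenosylhomocysteine hydrolase (0.984). Cyp2b10 was barely expressed without oleic acid, with group means of 0.859 CPM in Con and 0.685 CPM in BBR and a lowest library of 0.368 CPM. Its means were 12.3 CPM in ConOA and 11.3 CPM in BBROA, so it differed by far more than Slc30a1 did. For Slc39a14 they were Ajuba (0.991), Rin3 (0.990) and F3, the tissue factor gene (0.989).

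For Slc39a4 the closest were Fblim1 (0.976), Lrg1 (0.975) and Adamts7 (0.964). F3 ran at group means of 112 CPM in Con, 66.4 in BBR, 172 in ConOA and 149 in BBROA, the same order of groups as Slc39a14. Lrg1 ran at 123, 79.3, 84.6 and 67.8 CPM in the same order of naming, highest in Con and lowest in BBROA as for Slc39a4. Mtf1 and Slc30a10 had weaker matches, among them Ankrd52 (0.889) and an assembled locus without a gene symbol (0.874) for Mtf1, and Prcp (0.910), Dusp14 (0.895) and Ppa2 (0.894) for Slc30a10.

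The 12 libraries held 15485508 to 23668379 counts, so that 3 counts, the floor used here, correspond to 0.127 to 0.194 CPM. Summed hepatocyte markers, 7 of 8 listed genes being found by symbol, were at 30810 to 32250 CPM in Con and 32530 to 34640 CPM in BBR. They were at 35990 to 39200 CPM in the 6 libraries with oleic acid. Most of the sum was Alb, with a highest group mean of 33183 CPM. With BBR alone 2 of the 7 rose and 3 fell (Cps1 by 0.86, Hnf4a by 0.26 and Ass1 by 0.15 on the log2 scale). With oleic acid alone 5 rose, among them Cps1 by 3.32. Of all genes tested, 13.2% rose and 14.5% fell with BBR alone, and 21.3% and 21.5% with oleic acid alone. Of the marker lists of other liver cells, the 6 cholangiocyte genes summed to 590 to 722.5 CPM in Con, 391 to 422 CPM in BBR, 242 to 272 CPM in ConOA and 199 to 240 CPM in BBROA, and the 10 Kupffer cell genes to 101 to 123 CPM outside BBR and 141 to 183 CPM in BBR. Most of the Kupffer sum was Cd68, whose group mean was 80.1 CPM in Con and 131 CPM in BBR, the one gene of that list that rose with BBR alone, while Cd5l fell. With oleic acid alone 3 of the 10 rose (Marco by 2.51, Lyz2 by 1.67 and Adgre1 by 1.41 on the log2 scale) and 6 fell. The cholangiocyte sum was mostly Spp1 (osteopontin), at 553 to 680.4 CPM in Con and 186 to 222 CPM in ConOA, while Krt7 had at most 3 counts and Cftr at most 1 in any library. The other cholangiocyte genes went the opposite way with BBR alone, in which Epcam rose by 0.92, Krt19 by 0.68 and Sox9 by 0.61 on the log2 scale, and Sox9 also rose by 0.60 with oleic acid alone. The 7 endothelial genes summed to 53.2 to 56.1 CPM in Con and 60.5 to 65.2 CPM in BBR, which did not overlap. They summed to 48.6 to 62.15 CPM in ConOA and 59.2 to 60.1 CPM in BBROA. With BBR alone 3 of the 7 rose (Kdr by 0.50, Pecam1 by 0.39 and Cdh5 by 0.30 on the log2 scale) and 0 fell. The 8 stellate cell genes summed to 24.7 to 31.5 CPM over all libraries. Of the 6 tested with BBR alone, 0 rose and 1 fell, namely Acta2 by 0.97. With oleic acid alone 1 endothelial gene rose, and 1 stellate cell gene rose and 1 fell. Fewer cells of a type and less RNA per cell cannot be told apart in bulk libraries, and the part of these markers in the member levels was not tested.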

How the data were processed

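Total RNA from 12 libraries of primary mouse hepatocytes, 3 for each of Con, ConOA, BBR and BBROA, was poly(A)-selected and sequenced by the study. The authors deposited a table per library that lists 22471 features, each by its estimated count and by FPKM, scaled to transcript length and library size, on the genome build mm10 per the submitters' processing notes. The aligner, the counting program and the use of strand are not given in the sources used here. For 2862 features at least 1 deposited count was not whole, and counts were rounded. Groups and replicate numbers came from the sample titles, doses and times from the study's methods.

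Levels were expressed as TMM-scaled CPM over all 12 libraries. Pairwise comparisons used the 6 libraries concerned, and the interaction of BBR and OA, contrasted as (BBROA minus ConOA) minus (BBR minus Con), used all 12. Each was fitted with edgeR 4.0.16 in R 4.3.3 (limma 3.58.1) by filterByExpr with a minimum count of 10, TMM scaling and its quasi-likelihood F test (two-sided), and p-values were adjusted after Benjamini and Hochberg over all genes tested, with a threshold of 0.05. The standard error was the log2 fold change divided by the square root of F. The biological coefficient of variation was 4.75% to 5.31%. The script was tested on simulated counts. FPKM served to compare levels between genes, and the ratio of Mt2 to Mt1 and the range of Mtf1 in FPKM were also read across libraries. Ranges that do not overlap were counted on CPM. Total counts of 15485508 to 23668379 per library limit the precision of genes near the floor of 3 counts, and replicates of a group differed by more than counting noise.

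The members and the gene lists were chosen with earlier results of these data known. From the metal lists up to 6 genes were selected in each comparison, those with the largest absolute log2 fold change among called genes. Their higher group had to average 1 CPM or more. From the 2 inducer lists up to 3 were selected by the same rule. Not every value of the selected genes is given. Some smaller calls, among them that of Orm1 and those of further zinc transporters, and some genes not called were named after their values were seen. Genes most like a member were the 3 with the highest Pearson correlation of log2 CPM, of which 1 is not reported here. Alternatives were RLE and upper quartile scaling, DESeq2 1.42.0, no filter, a replicate block, all 12 libraries in one fit, an unadjusted p under 0.05 with a 2-fold change, and leaving out each library in turn. Coordinates came from GENCODE M21 on GRCm38, in which 99.71% of the Ensembl identifiers were found, and start regions from RefSeq on GRCm38.p6, which held 5 of the 7 members.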

Additional observations from a re-analysis of the deposited data

Results flagged for a closer look

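The drug difference differed between cells with and without oleic acid for 11 genes of the metal-handling, glucocorticoid-responsive and interleukin-6 lists, by the interaction term of the edgeR quasi-likelihood fit over 12 libraries. Over all genes tested, the term was called above 0 for 6.87% and below it for 5.31%. Each value is the drug difference with oleic acid minus the drug difference without it, on the log2 scale, with its adjusted p.

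Hamp had the largest term, at 1.42 (adjusted p = 5.70e-06), since BBR libraries lay below Con and BBROA libraries above ConOA. Ndrg1 came to -0.89 (adjusted p = 2.11e-04), the sign that Mt1 and Mt2 also had. Both acute-phase genes of the interleukin-6 list that fell with BBR alone had positive terms, of 0.77 for Hp (adjusted p = 3.32e-05) and 0.60 for Fgb (adjusted p = 9.25e-05). Zbtb16, of the glucocorticoid-responsive list, came to 0.64 (adjusted p = 6.81e-04). Among the copper genes Cp came to 0.43 (adjusted p = 4.95e-04) and Ccs, the copper chaperone of superoxide dismutase, to 0.41 (adjusted p = 0.050), a call lost under 13 of 17 alternatives. Among the MTF1 targets Cebpa came to 0.41 (adjusted p = 0.0083) and Gclc to 0.46 (adjusted p = 0.020), the latter lost under 6 of 17 alternatives. Arg1 came to -0.47 (adjusted p = 0.018). Slc39a13, the only called zinc transporter outside the members, came to 0.40 (adjusted p = 0.047), and its call was lost under 12 of 17 alternatives, including DESeq2 and upper quartile scaling.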

How the results depend on the processing

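All member differences kept their direction where they exceeded the spread between replicates, and 425 of 427 values under alternatives moved by less than that spread. The exceptions were Slc30a1 in ConOA against Con under upper quartile scaling (0.43) and the interaction term of Slc30a10 without BBROA replicate 2 (-0.30). Of 1331 values of called list genes, 1184 stayed past the threshold and none changed direction. The number of metal-handling genes called was 17 for BBR against Con, 3 for BBROA against ConOA, 24 for ConOA against Con, 18 for BBROA against BBR and 8 for the interaction. Under an unadjusted p under 0.05 with a 2-fold change these counts were 3, 1, 2, 3 and 1, since few of these genes changed by that much. Leaving out 1 library at a time gave 13 to 16, 3 each time, 16 to 21, 15 to 19 and 5 to 8. The lowest interaction count, 5, came without Con replicate 2, BBR replicate 2, ConOA replicate 2 or BBROA replicate 3, and DESeq2 also gave 5. Deviations of same-numbered libraries from their group means correlated weakly but always positively, by 0.0234 to 0.155. In 3 of the comparisons every one of 6 libraries correlated best with its own number, and in BBROA against ConOA 5 of 6 did. Same-numbered libraries thus shared a small part of their spread across groups, which the main fits did not include. What the replicate numbers stand for is not stated. With the replicate block the count for BBROA against ConOA was 8, with 4 higher and 4 lower, and the cause was not tested. The other counts with the block were 20, 27, 18 and 9. For single lists the block gave 2 zinc transporters higher for BBROA against ConOA, where 0 were called without it, 8 copper genes for ConOA against Con in place of 5, and 2 glucocorticoid-responsive genes for BBROA against ConOA in place of 1. The share of all genes called with the block is not given, so nothing is read from these counts about the lists. With 15485508 to 23668379 counts a library, Slc30a10 rests on 20 to 60 reads, and leaving out a library removes 1 of 3 replicates.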
